A study of Mus musculus with 35 samples.

Results

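Cxcr3, Cxcr4, Ccr2 and Cx3cr1 are 4 chemokine receptor genes, selected by gene symbol from the 38924 entries of the deposited mouse count table. Their levels were followed in RNA of CD8 T cells sorted by flow cytometry from brain and spleen of C57BL/6 mice. The sort kept CD3e+CD8+ cells with high CD44 and low CD62L, the surface pattern of antigen-experienced T cells that have left the naive state. Cells were kept without stimulation or incubated for 2 hours with PMA and ionomycin, a pair of drugs that activate protein kinase C and raise cytosolic calcium and so bypass the T cell receptor. There were 35 libraries in 7 groups. Brain cells without stimulation were taken from young males (5 libraries), aged males (6) and aged females (5). Stimulated brain cells came from aged males (4) and aged females (5). Spleen cells came from aged males, 5 unstimulated and 5 stimulated. Age is given only as young or aged, no genetic change is named, and nothing states that libraries of a group came from separate animals, so the p-values measure the spread between these libraries, which may be technical. Libraries are called by the replicate number in their titles.

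Chemokine receptors are G protein-coupled receptors that turn gradients of small secreted proteins into directed migration, and the set a T cell carries helps to decide which tissue it enters and where it stays. Cxcr3 binds the interferon-induced chemokines Cxcl9, Cxcl10 and Cxcl11 and is a receptor of effector and memory CD8 cells. Cxcr4 binds Cxcl12, made by stromal and endothelial cells of bone marrow, brain and other organs. Ccr2 binds Ccl2 and related chemokines and is best known on inflammatory monocytes, though effector T cells also carry it. Cx3cr1 binds Cx3cl1, marks cytotoxic effector CD8 cells in blood and spleen, and in brain is a gene of microglia.

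Of these genes, Cxcr4 and Cxcr3 changed in opposite directions when spleen cells were stimulated, so their upstream sequences are shown here. They are from RefSeq (GRCm38.p6), read 5′ to 3′ on the minus strand, and each ends just before the start site that lies farther upstream in RefSeq or GENCODE. In capitals are matches, on either strand, to 7 motifs searched: TATA box (TATAAA), GC box (GGGCGG), NRF-1 (GCGCATGC), AP-1 (TGANTCA), NFAT core (GGAAA), T-box (GGTGTGA) and KLF (GGGTG). Cxcr4 is protein coding at chr1:128588199-128592293 (ENSMUSG00000045382), and the 250 bases shown lie at chr1:128592300-128592549. Cxcr3 is protein coding at chrX:101731535-101734269 (ENSMUSG00000050232), and the 128 bases shown lie at chrX:101734270-101734397.
Cxcr4: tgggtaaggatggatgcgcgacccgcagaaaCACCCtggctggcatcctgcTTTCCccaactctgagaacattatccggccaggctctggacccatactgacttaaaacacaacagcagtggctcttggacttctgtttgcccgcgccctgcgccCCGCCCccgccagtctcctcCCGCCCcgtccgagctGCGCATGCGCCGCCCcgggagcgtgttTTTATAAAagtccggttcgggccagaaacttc
Cxcr3: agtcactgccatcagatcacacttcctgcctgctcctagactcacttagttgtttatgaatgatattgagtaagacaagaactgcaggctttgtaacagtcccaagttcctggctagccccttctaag

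In the RefSeq window from 250 bases before to 50 after the start, Cxcr4 had a GC content of 59.3% and 20 CpG dinucleotides, against medians of 52.7% and 7 over 32851 promoters. Its TATA box on the coding strand began 30 bases before the start and overlapped another match on the opposite strand. Of all promoters, 13.6% held a TATA box match. Cxcr4 also held 3 GC boxes (present in 35.7% of promoters) and 2 overlapping NRF-1 matches (2.71% of promoters), the nearer of which overlapped the GC box next to it. It had 1 NFAT core match (61.3% of promoters) and 1 KLF match (57.5%), and no AP-1 (7.81%) or T-box (3.98%) match. The Cxcr3 window had a GC content of 49.3%, 4 CpG and none of the 7 motifs. Ccr2 (chr9:124101950-124113557, plus strand, ENSMUSG00000049103) had 4 NFAT core matches and a GC content of 38%, and Cx3cr1 (chr9:119901616-120069879, minus strand, ENSMUSG00000052336) had 1 NFAT core and 2 KLF matches and a GC content of 54.3%. A match is a description of letters, and binding was not measured.

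Libraries held 1156594 to 24973886 counts. Genes with at least 1 count numbered 2271 to 4464 in stimulated male brain and 4211 to 6769 in stimulated female brain, against 6456 to 12706 in unstimulated brain and 13729 to 15174 in spleen. Mitochondrial genes took 38.5% to 69.7% of counts in the stimulated brain libraries and 8.28% to 20.8% in all others. The sort was checked on 8 CD8 T cell markers (Cd3d, Cd3e, Cd3g, Cd8a, Cd8b1, Cd2, Lck and Cd247), which were all detected in every group. Their summed level was 1972 to 5299 CPM (counts scaled to library size) in unstimulated brain and 1170 to 2155 in spleen. It was 740.7 to 2333 CPM in stimulated female brain and 184.6 to 457 CPM in stimulated male brain. Stimulated brain libraries therefore stood apart, and each comparison below that uses them rests on few detected genes.

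**Figure D1:**
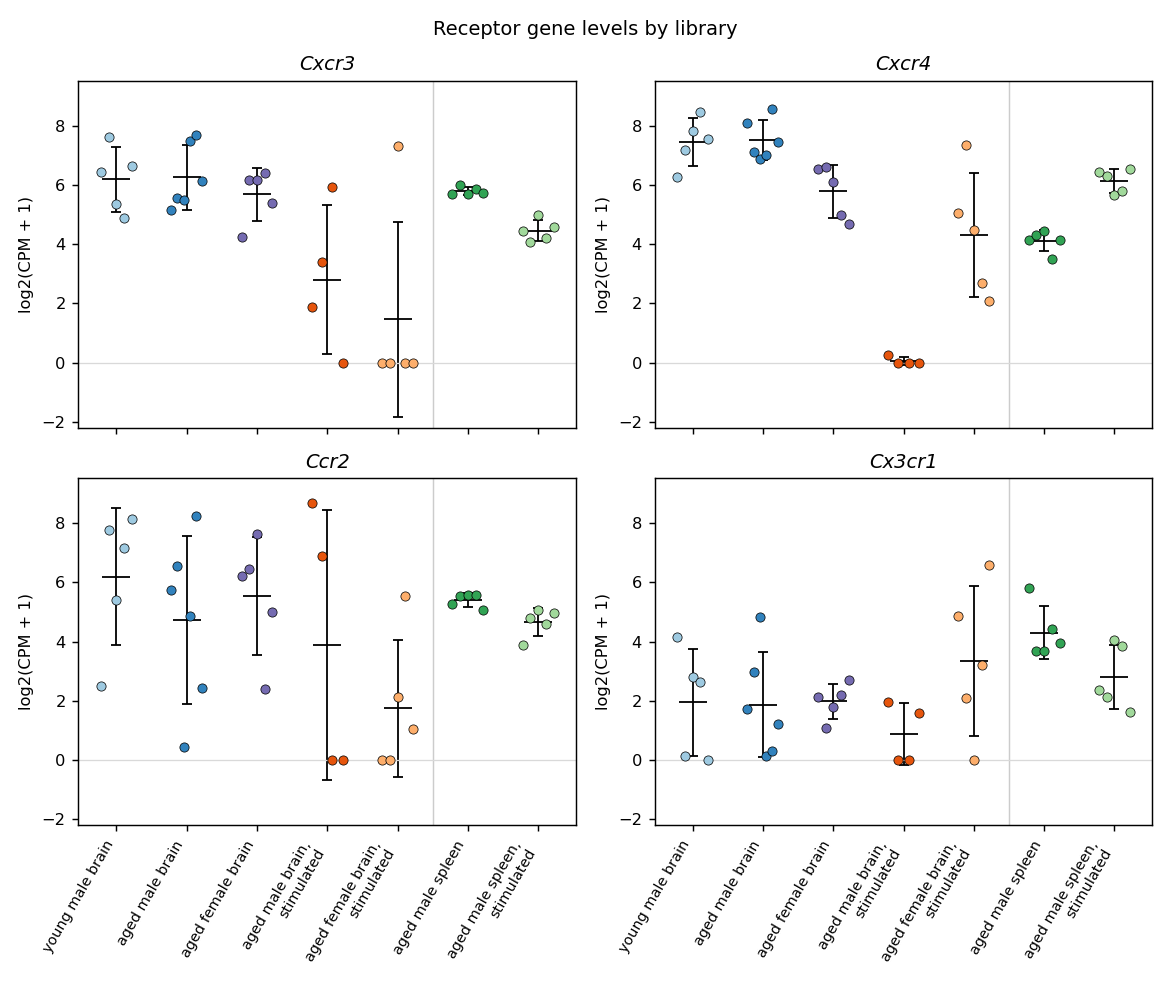
Level of the 4 receptor genes, as log2(CPM + 1), in each of the 35 libraries (points) with the mean and SD of each group; the grey line separates brain from spleen. The 5 unstimulated spleen libraries lie close together for Cxcr3, Cxcr4 and Ccr2, and all 4 stimulated male brain libraries lie at or near 0 for Cxcr4.

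In unstimulated cells of aged males, Cxcr4 was higher in brain than in spleen, while Cxcr3, Ccr2 and Cx3cr1 did not pass the test. Cxcr4 stood at 16.6, 18.6, 20.7, 10.4 and 16.8 CPM in the spleen libraries (mean 16.6 ± 3.85, SD, n = 5) and at 115 to 378 CPM in brain, with a median of 154 (mean 200.3 ± 104, SD, n = 6). The groups did not overlap, also without TMM scaling (edgeR's trimmed mean of M-values) and in TPM (the authors' abundance, scaled by transcript length), and the ratio of means was 12.1, or 7.002 without TMM scaling and 9.398 in TPM. Among the 7108 genes with a mean of at least 10 CPM in either group, 6.95% were higher in brain without overlap. The log2 fold change in edgeR's quasi-likelihood test was 3.40 ± 0.42 (SE), with an adjusted p of 0.000189 over 11040 genes. In this comparison 7.37% of all genes tested were called and the median over all genes was 0.31 on the log2 scale, so 1 of the 4 receptors was called against that background. In bulk RNA, fewer cells of a type and less RNA per cell cannot be told apart. Titles of spleen samples lack the hyphens that titles of these brain samples have, and this difference cannot be told apart from tissue. Each title also ends in an S-number of unstated meaning. None repeats within unstimulated male brain, within spleen taken with stimulated female replicates 26 and 27, or within the remaining brain libraries. A difference between these sets could not be told apart from tissue, from stimulation in male brain or from sex in unstimulated brain. It would also touch the comparisons of responses.

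Cxcr3, at 54.4 ± 4.98 CPM in spleen (SD, n = 5), ranged from 34.4 to 206 CPM in brain (median 57.6, n = 6), and the spleen values lay inside the brain range. Its log2 fold change of brain over spleen was 0.61 ± 0.50 (SE, adjusted p = 0.638, edgeR). Ccr2 was 32.3 to 46.9 CPM in spleen and 0.374 to 303 CPM in brain, an 809-fold range among 6 brain libraries. Its fold change was 0.74 ± 0.99 on the log2 scale (adjusted p = 0.807, edgeR) and turned to -0.38 without aged male brain replicate 8. Cx3cr1 was lower in brain on average, at 6.40 ± 10.7 CPM (SD, n = 6) against 22.6 ± 18.3 CPM (SD, n = 5). Its log2 fold change of -1.98 ± 1.19 (SE) had an adjusted p of 0.478 (edgeR), and 1 of 6 brain libraries reached 27.6 CPM, inside the spleen range of 11.7 to 54.7.

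Stimulation of aged male spleen cells moved 3 of the 4 receptors, Cxcr4 up and Cxcr3 and Ccr2 down. Cxcr4 rose from 16.6 CPM to 84.6, 76.8, 48.9, 54.5 and 92.6 CPM in the stimulated libraries (mean 71.5 ± 19, SD, n = 5), a 4.30-fold higher mean (2.635-fold without TMM scaling and 2.904-fold in TPM) with no overlap between groups. The log2 fold change was 2.08 ± 0.23 (SE, adjusted p = 5.55e-05, edgeR), beside a background of 18.7% of 11107 genes called and a median of -0.07. Cxcr3 was 50.8, 62.1, 50.5, 56.7 and 52.0 CPM without stimulation and 20.8, 15.98, 30.5, 17.6 and 22.9 CPM with it. Again the groups did not overlap, and the log2 fold change was -1.37 ± 0.18 (SE, adjusted p = 0.000241, edgeR). Of 6185 genes with a mean of at least 10 CPM in either group, 17.5% were higher and 7.34% lower on stimulation without overlap.

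Ccr2 fell from 37.4, 45.4, 46.9, 46.1 and 32.3 CPM to 13.7, 26.5, 32.7, 22.9 and 30.5 CPM. The groups met only at their edges, and without TMM scaling they did not overlap. Its log2 fold change was -0.75 ± 0.23 (SE, adjusted p = 0.0347, edgeR). Leaving out any of 6 single libraries (unstimulated replicates 30, 31, 32 or 33, or stimulated 37 or 39) took the adjusted p of Ccr2 above the threshold of 0.05, to at most 0.0793. Cx3cr1 was 54.7, 11.8, 11.7, 20.2 and 14.3 CPM without stimulation and 4.15, 3.37, 15.5, 13.4 and 2.08 CPM with it. Its log2 fold change of -1.60 ± 0.60 (SE) did not pass (adjusted p = 0.0879, edgeR), and passed in DESeq2 (adjusted p = 0.0228). Without TMM scaling and in TPM its groups did not overlap, as for Ccr2. Of 10 fits with a single library left out, 1 passed (adjusted p = 0.0409, edgeR). All spleen titles share 1 format, so that difference does not touch this comparison. In a fit of all 35 libraries, whose shared spread includes the brain libraries, none of the 3 calls was kept (adjusted p = 1.0 for each).

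The order of the receptors by TPM, which allows levels of different genes to be compared, turned over in spleen. Cxcr3 had the highest TPM of the 4 in 5 of 5 unstimulated spleen libraries, at 47.8 ± 4.26 TPM against 16.3 ± 6.34 for Cxcr4 (SD, n = 5). Cxcr4 had the highest TPM in 5 of 5 stimulated spleen libraries, at 47.2 ± 7.32 TPM against 11.4 ± 3.89 for Cxcr3 (SD, n = 5). In unstimulated brain Cxcr4 was the highest in 4 of 5 young male, 5 of 6 aged male and 2 of 5 aged female libraries. Ccr2 and Cx3cr1 reached 20.5 ± 3.64 and 9.396 ± 8.44 TPM in unstimulated spleen (SD, n = 5). The effective length behind the authors' TPM ran from 734 to 1651 bases for Cxcr4 between libraries, since 2 transcripts were weighed, and from 2078 to 5193 bases for Ccr2, with 4 transcripts. Comparisons between groups therefore rest on counts.

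**Figure D2:**
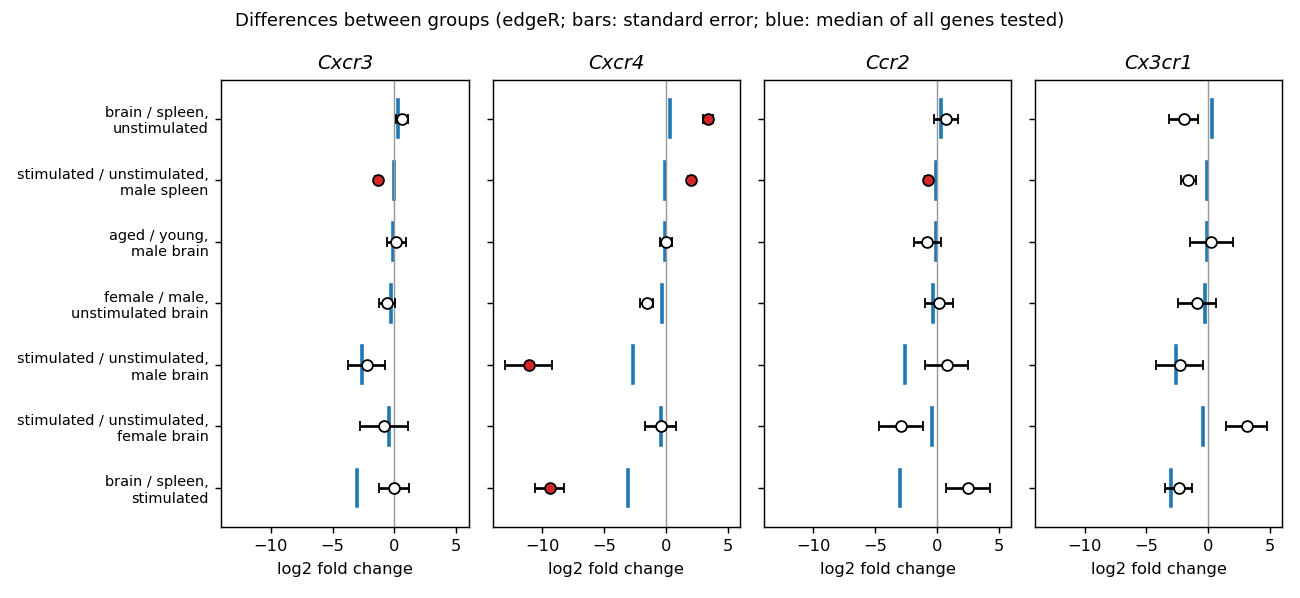
Log2 fold change of each receptor gene in 7 comparisons (points, with standard error bars), with the median of all genes tested as a blue mark; filled red points had an adjusted p under 0.05 in edgeR. Cxcr4 lies at 3.40 for brain over spleen without stimulation and at -9.38 with stimulation, and in comparisons with stimulated male brain the median of all genes lies at -2.63 and -3.02.

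Stimulated brain cells of aged males had almost no Cxcr4 counts. The 4 libraries held 1, 0, 0 and 0 Cxcr4 counts, against 2456 to 5746 counts in each of the 6 unstimulated libraries. A count of 0 allowed up to 1.44, 1.40 and 3.01 CPM in replicates 20, 21 and 22 (3 counts per library, counting error only). The pooled level was 0.0955 CPM, and the mean of unstimulated libraries was 2098 times that, with a 95% counting interval from 376.5 to 82860 times. The log2 fold change fitted by edgeR, -11.09 ± 1.93 (SE, adjusted p = 0.00442), depends on the prior count at such levels. Cxcr4 passed the low-count filter through the unstimulated libraries alone, so this test could only place it lower. In this comparison 38.1% of 7540 genes were called, 2743 of 2875 of them lower, and the median over all genes was -2.63 on the log2 scale. Of 7375 genes with a mean of at least 10 CPM in either group, 35% were lower on stimulation without overlap, as Cxcr4 was.

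Loss of counts was common among abundant genes in these libraries. Of 1588 genes with a mean of at least 100 CPM in unstimulated aged male brain, 171 (10.8%) had at most 1 count over the 4 stimulated male libraries, and Cxcr4 was among them. The same held for 39 of the 1588 (2.46%) in stimulated female brain, which has 5 libraries, and for 2 (0.126%) in stimulated spleen. This count was chosen after the values were seen. The summed level of CD8 T cell markers in stimulated male brain was at most 457 CPM, against at least 3050 CPM without stimulation, and 5 of the 8 (Cd3d, Cd3e, Cd3g, Cd8a and Cd8b1) were called lower. The part of library quality or of T cell RNA content in the Cxcr4 difference was not tested. With replicates 20, 21 and 22 left out, which had under 4000 detected genes, 1 stimulated library with 6391537 counts remained, and it held the single Cxcr4 count.

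The other receptors were scattered in stimulated male brain. Ccr2 had 2121 and 243 counts in replicates 19 and 20 (405 and 117 CPM) and 0 in replicates 21 and 22. Cxcr3 had 14, 20, 129 and 0 counts, or 2.67, 9.60, 59.98 and 0 CPM. Cx3cr1 had 15, 0, 0 and 2 counts. None of these 3 passed edgeR's test against unstimulated cells, with log2 fold changes of -2.26 ± 1.49 for Cxcr3 (adjusted p = 0.263), 0.78 ± 1.76 for Ccr2 (adjusted p = 0.774) and -2.30 ± 1.90 for Cx3cr1 (adjusted p = 0.386). Replicate 21 alone carried 129 of the 163 Cxcr3 counts. Without it the log2 fold change of Cxcr3 was -4.51 (adjusted p = 0.0491, edgeR). In that fit 2583 of 8716 genes were called and the median of all genes was -4.395, close to Cxcr3. Ccr2 turned to -0.99 without replicate 19.

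**Figure D3:**
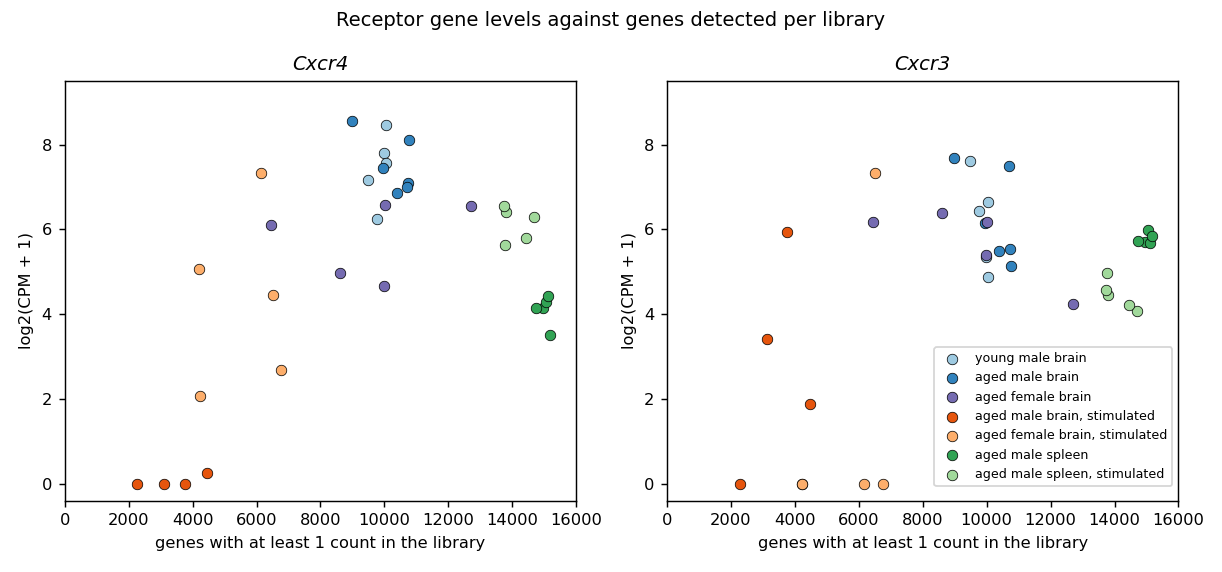
Level of Cxcr4 (left) and Cxcr3 (right), as log2(CPM + 1), against the number of genes with at least 1 count in the same library, for all 35 libraries by group. Stimulated male brain libraries (2271 to 4464 genes) hold the lowest Cxcr4; stimulated female replicates 23 and 27, with 4211 and 4239 genes, hold 32.5 and 3.20 CPM, and replicate 24, with 6149 genes, holds 160 CPM.

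In stimulated brain cells of aged females all 5 libraries held Cxcr4 counts, 115, 482, 94, 15 and 3. These were 32.5, 160, 21.1, 5.39 and 3.20 CPM, against 92.6, 95.1, 68.1, 30.5 and 24.4 CPM without stimulation. The groups overlapped, and the log2 fold change was -0.39 ± 1.25 (SE, adjusted p = 0.929, edgeR). Cxcr3 was detected in 1 of the 5 stimulated libraries, replicate 25, with 711 counts (159 CPM), while a count of 0 in the other 4 allowed at most 0.848 to 3.20 CPM. Without stimulation it was 18.1 to 82.6 CPM. The log2 fold change of Cxcr3 was -0.86 ± 1.94 (SE, adjusted p = 0.9, edgeR), and -12.09 without replicate 25 (adjusted p = 0.0351), a fitted value against 4 libraries at 0 that depends on the prior count. In that fit Cxcr3 could only come out lower, and 262 of 7187 genes were called, with a median of -0.829.

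Ccr2 had 0, 0, 15, 127 and 1 counts in stimulated female brain, at most 45.6 CPM, against 72.5, 85.9, 198, 4.28 and 30.8 CPM without stimulation. Its log2 fold change of -2.89 ± 1.79 (SE) did not pass (adjusted p = 0.502, edgeR). Cx3cr1 went from 1.11 to 5.52 CPM without stimulation to 28.3, 3.32, 0, 8.26 and 93.8 CPM with it, and did not pass (3.10 ± 1.65, SE, log2, adjusted p = 0.406, edgeR). No receptor was called, beside 6.09% of 6305 genes called and a median of -0.41. Stimulated female replicates 26 and 27 have titles without hyphens. With the 3 others alone, the log2 fold change of Cxcr4 was 0.10.

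Between stimulated brain and stimulated spleen of aged males, Cxcr4 was lower in brain, the opposite of the unstimulated comparison. The groups held 1 and 3585 counts in sum, and the mean in spleen was 749 times the pooled brain level (95% counting interval 134.3 to 29570). Here Cxcr4 passed the low-count filter through spleen alone. The fitted log2 fold change was -9.38 ± 1.17 (SE, adjusted p = 0.000431, edgeR), beside 48.5% of 9135 genes called, 4268 of 4434 of them lower in brain, and a median of -3.02. Of 6465 genes at 10 CPM or more in either group, 44.4% were lower in brain without overlap. Cxcr3 (-0.03 ± 1.2, SE, log2), Ccr2 (2.54 ± 1.78) and Cx3cr1 (-2.39 ± 1.11) had adjusted p of 0.986, 0.296 and 0.112 (edgeR). Without brain replicate 19, Cx3cr1 was at -3.88 (adjusted p = 0.0422, edgeR). In that fit 5981 of 10088 genes were called and the median of all genes was lower, at -6.642.

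The response of Cxcr4 to stimulation differed between brain and spleen in a test of the difference itself. The interaction, as the log2 response in brain minus that in spleen of aged males, was -13.14 ± 1.21 (SE, adjusted p = 2.04e-07, edgeR). The 4 groups shared 1 estimate of spread, although they spread unequally. Over genes at 10 CPM or more, the median SD of log2(CPM + 1) was 0.22 in unstimulated spleen, 0.38 in stimulated spleen and 3.11 in stimulated male brain. The SE was below that of the male brain response alone, and the p-value may be too small. Here 37.8% of 12117 genes were called and the median of all genes was -4.04. Cxcr4 remained past the threshold with each single library left out, at -16.4 to -12.8. Cxcr3 (-1.04), Ccr2 (1.43) and Cx3cr1 (-0.79) did not pass, although Cxcr3 did without stimulated male brain replicate 21 (-3.19, adjusted p = 0.0285). In that fit 4700 of 12725 genes were called and the median of all genes was lower, at -4.887. A comparison of the response between female and male brain, added after the data were seen, gave 10.54 ± 2.33 for Cxcr4 on the log2 scale (female minus male, SE, adjusted p = 0.0219, edgeR) and no call for the other 3 (adjusted p of 0.237 or more), beside 2.6% of 10026 genes called and a median of 1.69. It was not kept without stimulated male replicates 20, 21 and 22 (9.39, adjusted p = 0.392), a fit in which 1 stimulated male library is assumed to vary like the other groups. It was at 10.4 (adjusted p = 0.0508) without unstimulated female replicate 16.

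No difference with age was detectable for the receptors in unstimulated male brain beyond the spread between libraries. Cxcr4 was 75.2, 143, 222, 350.1 and 187 CPM in the young libraries (mean 196 ± 102, SD, n = 5), next to the aged mean of 200.3 CPM. The log2 fold change of aged over young was 0.015 ± 0.51 (SE) for Cxcr4 and 0.15 ± 0.74 for Cxcr3, whose young libraries ran from 28.3 to 194 CPM. For Ccr2, at 4.61 to 279 CPM in young brain, it was -0.80 ± 1.09, and for Cx3cr1, at 0 to 16.9 CPM, 0.25 ± 1.76. Adjusted p-values were 0.994 or more, and 0% of 8068 genes were called by edgeR. Without adjustment 374 genes had p under 0.05, and DESeq2 called 72 genes. Leaving out single libraries changed the sign of the Cxcr3, Cxcr4 and Cx3cr1 differences, for example to -1.30 for Cx3cr1 without aged replicate 12.

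Aged female brain had lower Cxcr4 than aged male brain in level, but the difference did not pass across genes. The female libraries lay between 24.4 and 95.1 CPM and the male libraries between 115 and 378 CPM. The ratio of female to male means was 0.310, and an exact two-sided permutation test of this single gene gave p = 0.00433, the smallest that 5 against 6 libraries allow. The log2 fold change was -1.53 ± 0.53 (SE) with an adjusted p of 0.811 (edgeR), and the median of all genes was -0.29. The groups overlapped without TMM scaling and in TPM. Of 7352 genes at 10 CPM or more, 1.51% were lower in females without overlap, and 0.15% of 8691 genes tested were called. Cxcr3 (-0.59 ± 0.68, SE, log2), Ccr2 (0.14 ± 1.11) and Cx3cr1 (-0.88 ± 1.53) did not pass (adjusted p of 0.999 for each, edgeR).

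Libraries of a group varied more in unstimulated brain than in spleen for Cxcr3, Cxcr4 and Ccr2, and Ccr2 was the most scattered receptor in unstimulated brain. The SD of log2(CPM + 1) for Ccr2 was 2.32 in young male, 2.84 in aged male and 1.99 in aged female brain, and 0.23 in spleen. The median SD over genes with a mean of at least 10 CPM was 2.06, 1.69 and 1.47 in the same brain groups and 0.22 in spleen, so Ccr2 lay above that median in each brain group. Cxcr4 lay below it in each brain group, with SDs of 0.82, 0.68 and 0.90, and above it in spleen, with 0.35. Cxcr3 had 1.09, 1.09 and 0.88 in brain and 0.13 in spleen. Cx3cr1 had 1.82, 1.78 and 0.60 in brain and 0.89 in spleen.

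By mean CPM, neighbouring groups overlapped at each step of the order for Cxcr3, Ccr2 and Cx3cr1. Cxcr3 ran from unstimulated aged male brain (96.2 ± 75.5 CPM) through young male (89.4 ± 65.7), aged female (56.9 ± 26.7), spleen (54.4), stimulated female brain (31.9 ± 71.2) and stimulated spleen (21.6 ± 5.70) to stimulated male brain (18.1 ± 28.2). Cxcr4 ran from unstimulated aged and young male brain through stimulated spleen (71.5), unstimulated female brain (62.2 ± 33.5), stimulated female brain (44.5 ± 65.8) and spleen (16.6) to stimulated male brain. Only its last step, to stimulated male brain, was free of overlap. Ccr2 was highest in young male brain (137 ± 116 CPM) and lowest in stimulated female brain (10.01 ± 19.96). Cx3cr1 was highest in stimulated female brain (26.7 ± 39.1 CPM), where replicate 27 held 93.8 CPM and the mean without it was 9.96 CPM, below that of unstimulated spleen (22.6), and lowest in stimulated male brain (1.22 ± 1.45); errors are SD over the libraries of each group. Without TMM scaling and in TPM, unstimulated spleen was the highest group for Cx3cr1, at 38.3 CPM and 9.396 TPM against 13.5 CPM and 2.65 TPM in stimulated female brain. By TPM it was also the highest for Cxcr3.

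Across the 16 unstimulated brain libraries, Cx3cr1 tended to be low where Cxcr3 and Ccr2 were high, which passed by Pearson's r alone. The permutations shuffled libraries across the groups of age and sex. Pearson's r of log2(CPM + 1) was -0.60 for Cxcr3 with Cx3cr1 (permutation p = 0.0146, adjusted 0.0437 over 6 pairs) and -0.63 for Ccr2 with Cx3cr1 (permutation p = 0.0093, adjusted 0.0437). By Spearman's rho they were -0.56 (permutation p = 0.0281) and -0.53 (permutation p = 0.037), and both had an adjusted p of 0.111. Without the 2 libraries farthest from the median of Cxcr3 or of Ccr2, r was -0.62 and -0.47. No library was left out by its Cx3cr1 level. Within the 11 male libraries both were -0.67 (adjusted permutation p = 0.0843), and 5 female libraries are too few to test. Cxcr3 with Ccr2 (r = 0.17, rho = 0.25, permutation p = 0.536 and 0.356) and Cxcr4 with Ccr2 (r = 0.39, rho = 0.45, permutation p = 0.13 and 0.0829) showed no relation that passed, and the other 2 pairs had adjusted p-values of 0.431 or more for Pearson's r (permutation).

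**Figure D4:**
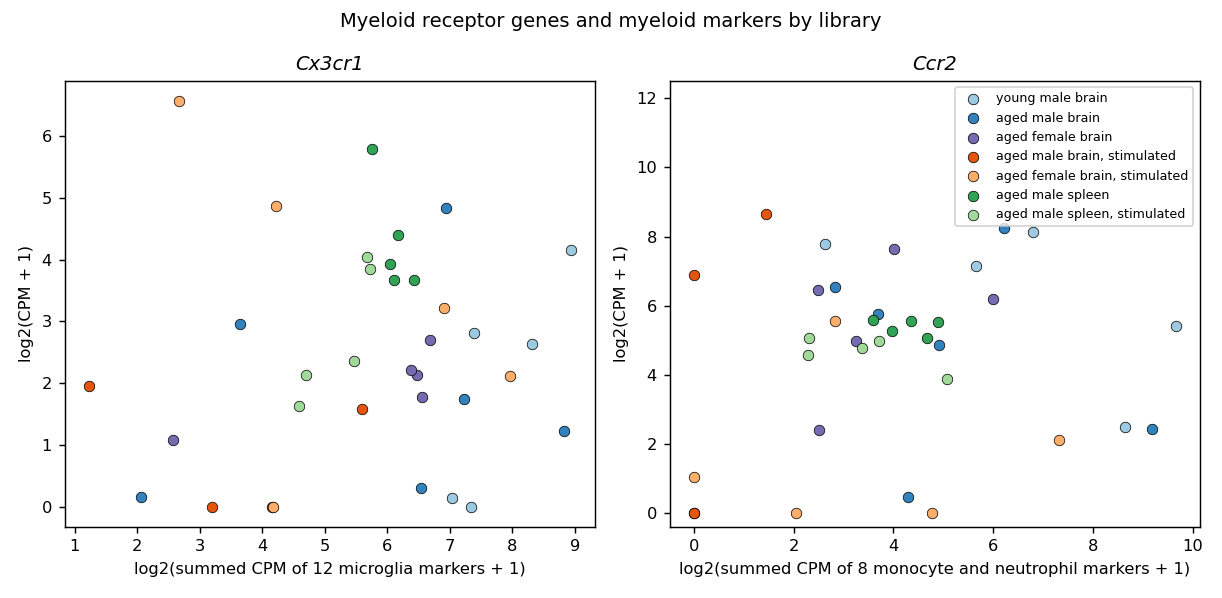
Cx3cr1 against the summed level of 12 microglia markers (left) and Ccr2 against 8 monocyte and neutrophil markers (right), as log2(CPM + 1), in the 35 libraries by group. The highest Cx3cr1 point, a stimulated female brain library at 93.8 CPM, has 5.33 CPM of microglia markers.

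Because microglia express Cx3cr1 and monocytes Ccr2, markers of those cells were set beside both genes. In unstimulated brain the sum of 12 microglia markers ran from 3.16 to 488 CPM, with Sall1 at 0 in every library, Aif1 at 0 in all male libraries and Trem2 at 0 in all aged ones. In young male brain replicate 2 had both the most Cx3cr1 (16.9 CPM) and the most microglia markers (488 CPM), and in aged female brain replicate 17 had both (5.52 and 102 CPM). The aged male library with the most Cx3cr1 (replicate 12, 27.6 CPM) had 122 CPM of microglia markers, and the one with the most microglia markers (replicate 9, 453 CPM) had 1.32 CPM of Cx3cr1. In stimulated female brain, replicate 27 had 93.8 CPM of Cx3cr1 with 5.33 CPM of microglia markers, and replicate 24 had 3.32 CPM with 249 CPM. In stimulated male brain 10 of the 12 markers were at 0 in every library. In spleen the sum was 52.8 to 85.2 CPM without and 22.96 to 51.9 CPM with stimulation, with Tmem119 and Sall1 at 0.

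NK cells also express Cx3cr1, and in unstimulated spleen the library with the most Cx3cr1 (replicate 30, 54.7 CPM) also had the largest sum of 4 NK cell markers, at 80.1 CPM against 13.7 to 24.7 CPM in the others. Without it the spleen mean of Cx3cr1 was 14.5 CPM. In young male brain replicate 6, by contrast, the NK sum was 172 CPM and Cx3cr1 was at 0. The part of NK cell RNA in the level of replicate 30 was not tested. For Ccr2, the sum of 8 monocyte and neutrophil markers was 73.1 CPM in aged male replicate 8, which had the most Ccr2 (303 CPM), and 584 CPM in replicate 9, which had 4.44 CPM of Ccr2. Stimulated male brain replicate 19, with 405 CPM of Ccr2, had 1.72 CPM of these markers, and 7 of the 8 were at 0 in all libraries of that group.

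Of 19 other chemokine receptor genes, 18 had a single entry in the files, and Ackr4, with 2 entries, was left out. Among the more abundant over the group means were Cxcr6, Cxcr5 and Ccr7. Cxcr6, a receptor for Cxcl16, was at 67.1 CPM in unstimulated spleen and 213 CPM in unstimulated aged male brain. It did not pass between these tissues (1.48 ± 0.52, SE, log2, adjusted p = 0.119, edgeR). Of 10 tested, 1 was called lower in brain, the eosinophil receptor Ccr3, at 4.47 CPM in spleen and 0.0156 CPM in brain (adjusted p = 0.00485, edgeR), and none was higher. Ccr3 passed the low-count filter through spleen alone, so it could only be called lower in brain. The median over these 10 was -0.72 against 0.31 for all genes, of which 4.02% were called lower.

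On stimulation of spleen cells, 2 of 10 other receptors rose and 1 fell, with a median log2 fold change of 0.08 against -0.07 for all genes, of which 12.6% rose and 6.12% fell. Ccr7, the receptor that guides cells to lymph nodes, rose from 8.46 to 48.6 CPM (2.5 ± 0.39, SE, adjusted p = 0.000807, edgeR). Ccrl2, an atypical receptor that binds chemerin, rose from 1.09 to 5.54 CPM (2.31 ± 0.69, adjusted p = 0.0328, edgeR). Cxcr6 fell from 67.1 to 31.1 CPM (-1.14 ± 0.25, adjusted p = 0.00721, edgeR), the direction of Cxcr3 and Ccr2. Of 7 dendritic and B cell markers, 4 rose in the same libraries (Cd79a, H2-Aa and Ms4a1 among them) and the sum of all 7 was 67.5 to 112 CPM against 26.2 to 50.3 CPM. B cells express Cxcr4, Ccr7 and Cxcr5 as well, and the part of B cell RNA in the Cxcr4 and Ccr7 differences was not tested. Cxcr5, a B cell and follicular T cell receptor, stood at 27.7 and 30.3 CPM.

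In stimulated male brain, 2 of 4 tested were called lower than without stimulation, among them Cxcr6 (-6.52 ± 1.99, SE, adjusted p = 0.0191, edgeR), with a median of -3.68 against -2.63 for all genes, of which 36.4% were called lower. In stimulated female brain, 1 of 3 was called, Ccr4, from 0.172 to 14.2 CPM (6.43 ± 1.76, adjusted p = 0.0417, edgeR), beside 1.92% of all genes called higher. Ccr4 passed the low-count filter through the stimulated libraries alone, so it could only be called higher. Between stimulated brain and spleen, 3 of 7 were lower in brain, Ccr7, Ccr8 and Cxcr5, beside 46.7% of all genes, each with no count in any of the 4 brain libraries against 48.6, 2.66 and 30.3 CPM in spleen. These 3 passed the low-count filter through spleen alone, so the test could only place them lower in brain. Ccr4 was higher there (8.95 against 2.71 CPM, adjusted p = 0.0049, edgeR), as were 1.82% of all genes. The response differed between tissues for 4 of 11, each lower in brain and among them Cxcr6, Ccr7 and Ccr8, with a median of -6.52 against -4.04 for all genes, of which 35.7% were called lower. With age, with sex and for the response of female against male brain, 0 of 5, 0 of 5 and 0 of 9 were called by edgeR.

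Most ligands of the 4 receptors were scarce in these sorted cells. Of 9 ligand genes, Ccl7 and Ccl12 had no count in any library and Cxcl12 was counted only in unstimulated spleen, at 0.0265 CPM. Cxcl10, a Cxcr3 ligand, was the most abundant, with means of 8.35 and 10.96 CPM in unstimulated aged male and aged female brain. Its highest mean, 46.1 CPM in stimulated male brain, came from 1 library at 184.3 CPM. It rose on stimulation of spleen cells from 0.588 to 4.78 CPM (2.96 ± 0.55, SE, log2, adjusted p = 0.00222, edgeR), 1 of 2 ligands tested. Cxcl9 (0.940 to 3.54 CPM in spleen) and Ccl2 (4.57 CPM in unstimulated aged male brain) followed in abundance, and Cxcl11 had counts only in unstimulated female brain (0.412 CPM). No ligand was called in another comparison.

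Signalling genes were taken as 28 members, among them G protein subunits, receptor kinases, arrestins, regulators of G protein signalling and T cell transcription factors. Brain over spleen without stimulation, 3 of 28 were higher and 0 lower, with a median of 0.56 against 0.31 for all genes, of which 3.35% were higher. These were Rgs1 (2.40 ± 0.50, SE, log2, adjusted p = 0.00551, edgeR) and Rgs2 (4.77 ± 0.29, adjusted p = 1.53e-07), which shorten G protein signals, and Rhoh (1.70 ± 0.47, adjusted p = 0.0385), a GTPase of blood cells. On stimulation of spleen cells 10 rose and 4 fell, with a median of -0.07, that of all genes, of which 12.6% rose and 6.12% fell. The 4 most abundant that rose were Eomes (0.96 ± 0.20) and Rgs1 (2.57 ± 0.17), Jak2 (0.66 ± 0.16) and Cd74 (0.84 ± 0.22). Those that fell were Grk6 (-0.62 ± 0.14), a kinase that desensitizes receptors, Klf2 (-1.02 ± 0.15), a factor of T cell egress, Pik3cg (-1.10 ± 0.28), a kinase downstream of receptor G proteins, and Hgs (-0.73 ± 0.19), which sorts receptors for degradation.

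In stimulated male brain 7 of 28 signalling genes were lower than without stimulation and 0 higher (median -2.81 against -2.63), beside 36.4% of all genes called lower. The most abundant were Itch, a ubiquitin ligase that acts on Cxcr4, from 186 to 1.91 CPM, Jak2 and Pik3cg, both without a count in the stimulated libraries, and Rgs10, from 81.0 to 0.349 CPM. Jak2 and Pik3cg passed the low-count filter through the unstimulated libraries alone and could only come out lower. In stimulated female brain 1 of 27 was lower, Gng2, from 33.01 to 0.216 CPM (adjusted p = 0.0437, edgeR), with a median of -0.58 against -0.41, beside 4.17% of all genes called lower. Gng2 passed the low-count filter through the unstimulated libraries alone, so it could only be called lower. Between stimulated brain and spleen 9 of 28 were lower (median -2.52 against -3.02), beside 46.7% of all genes, led in abundance by Adrbk1 (-2.48 ± 0.77), Tbx21 (-3.42 ± 0.77), Cd74 (127 CPM in spleen and 0.239 CPM in brain) and Jak2. The response differed between tissues for 13 of 28, each lower in brain, with a median of -3.28 against -4.04 and beside 35.7% of all genes called lower; among them were Adrbk1 (-3.34 ± 1.04), Rgs1 (-5.31 ± 1.14), Rgs2 (-4.89 ± 1.34) and Jak2, which had no count in stimulated male brain. With age, with sex and for the response of female against male brain, 0 of 28 were called by edgeR.

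The genes most like each receptor over all 35 libraries, by Spearman's rho of log2(CPM + 1) among 5900 genes, were ranked as a description. For Cxcr4 they were Canx (0.85), Hist1h2ao (0.84), Hist2h2bb (0.81), Actg1 (0.80) and Eef1a1 (0.80), and for Cxcr3 Hnrnpr (0.78), Prpf8 (0.77), Ifnar2 (0.76), Extl3 (0.76) and Oas3 (0.76). For Ccr2 they were Gnb2 (0.70), Snx19 (0.66), Parp8 (0.66), Mrpl42 (0.65) and Rptor (0.63), and for Cx3cr1 Igf2r (0.65), Cul5 (0.63), Coch (0.60), Plekhm2 (0.60) and Snapin (0.59). The libraries share depth, group and number of detected genes, which differ widely between stimulated brain and the rest. Histone genes share reads with near-identical copies, so their values are uncertain.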

How the data were processed

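The 4 genes and the gene lists set beside them were chosen with earlier results of these data known. The submitters' processing notes name Bowtie2 2.2.0, RSEM 1.2.12 and the build mm10; no source used here names an annotation release or says whether strand was used. Each library's file holds expected counts, TPM and FPKM from RSEM, as the authors deposited them and per the file headers. The deposited series table holds whole-number counts within 0.5 of the expected counts, and these entered all tests. The authors' TPM values served to order genes by level; the authors' FPKM values were not used.

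Groups came from sample titles. Counts were tested in R 4.3.3 with edgeR 4.0.16: filterByExpr by group (minimum count 10), TMM scaling, robust quasi-likelihood fits of the groups compared, two-sided tests, and Benjamini-Hochberg adjustment over all genes tested with a threshold of 0.05. Responses were compared by interaction terms over 4 groups; the female against male brain response was added after the data were seen. Levels are CPM with 1 TMM scaling over all 35 libraries; log2 levels use a pseudocount of 1. Single genes were also compared with exact permutation tests of log2(CPM + 1), and correlations with 100000 permutations. Alternatives used DESeq2 1.42.0 size factors and its test, limma 3.58.1 voom with quality weights, no low-count filter, all libraries in 1 fit, no mitochondrial genes, and each library left out. Replicates of a group differed beyond counting noise (chi-square per degree of freedom 13.0 or more). Total counts of 1156594 to 24973886 per library set the precision; intervals and floors cover counting error only.

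Named genes were the 4 receptors; other receptors and ligands past the threshold (at most 3 per direction and comparison) and the 4 most abundant of each list; signalling genes past the threshold (at most 4 per direction and comparison, by abundance); the 5 genes most like each receptor; and markers. A few results under this rule are left out here. Further other receptors and markers named beside a result were chosen after their values were seen. Gene positions are from GENCODE M21 (GRCm38, that is mm10), and promoters from RefSeq, where all 4 matched. Ackr1 was matched by its identifier. Tables were made in Python 3.11.15 (scipy 1.17.1, pandas 2.3.3, numpy 2.4.6) and drawn with matplotlib 3.10.9.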

Additional observations from a re-analysis of the deposited data

Results flagged for a closer look

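In 8 of 28 groups of CPM values tested (4 genes in 7 groups), the highest library lay apart from the rest by Dixon's criterion, where chance gives about 1 in 20 for normally distributed values. These CPM are skewed, so the 2 rates cannot be compared, and Cxcr4 in stimulated male brain and Cxcr3 in stimulated female brain each had counts in 1 library only, which meets the criterion by construction. For Cxcr3 these were stimulated male brain replicate 21 (59.98 CPM) and stimulated female brain replicate 25 (159.2 CPM). For Cxcr4 they were stimulated male brain replicate 19 (0.191 CPM, 1 count against 0 in the others) and stimulated female brain replicate 24 (160.2 CPM). For Ccr2 they were aged male brain replicate 8 (302.7 CPM) and stimulated female brain replicate 26 (45.63 CPM). For Cx3cr1 they were aged male brain replicate 12 (27.56 CPM) and unstimulated spleen replicate 30 (54.74 CPM).

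The log2 response of Cxcr4 to stimulation differed between brain and spleen by -13.14 and between female and male brain by 10.54, each by an interaction test in edgeR (adjusted p = 2.04e-07 and 0.0219); the second comparison was added after the data were seen. Both include the stimulated male libraries with 1 Cxcr4 count in all, so the fitted sizes depend on the prior count. Brain and spleen groups of unlike spread shared 1 estimate of spread in the first test, so its p-value may be too small.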

How the results depend on the processing

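No paired analysis was possible because each replicate number in the titles belongs to 1 library. Under other settings 229 receptor values kept direction and side of the threshold, 17 changed sign, 13 passed anew and 4 no longer passed. The cause of the rest was not tested. These counts take in the exact permutation tests, whose p is unadjusted over genes, so passing in them is a looser criterion. Calls for Cxcr4 between tissues and in stimulated male brain held in each alternative run. Fitting all libraries together ended the spleen calls of Cxcr3 (-1.34), Cxcr4 (2.10) and Ccr2 (-0.72) and turned Ccr2 by sex to -0.033. DESeq2 passed Cx3cr1 in spleen (-1.59) and between stimulated tissues (-2.49), and its size factors and its test put Cxcr4 by age at -0.003. DESeq2 size factors moved the median of all genes from -4.04 to -3.33 for the tissue interaction, from 1.69 to 1.02 for the sex interaction, from -2.63 to -2.46 for stimulated male brain and from -0.29 to -0.16 by sex. Voom gave Ccr2 at -1.46 between unstimulated tissues, -1.41 in stimulated male brain, -1.80 between stimulated tissues and -0.50 for the tissue interaction. It gave Cxcr4 -0.24 by age, Cx3cr1 0.67 by sex, Cxcr3 -3.37 and -5.63 on stimulation of male and female brain (adjusted p = 0.0494 and 0.0212) and Cxcr3 -2.43 for the sex interaction. The voom medians of all genes on stimulation were -3.658 in male and -2.112 in female brain.

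Exact permutation tests, with p unadjusted over genes, gave Ccr2 at -0.68 and Cx3cr1 at -2.43 (p = 0.0346) between unstimulated tissues, Cx3cr1 at -0.078 by age, and Cxcr4 at -1.73 (p = 0.00433) and Cx3cr1 at 0.11 by sex. On stimulation the same exact tests gave Cxcr3 -3.45 (p = 0.0381) and Ccr2 -0.83 in male brain, Cxcr3 -4.21 (p = 0.0476) and Ccr2 -3.79 (p = 0.0317) in female brain, and Ccr2 -0.77 and Cx3cr1 -1.92 (p = 0.0317) between stimulated tissues. Female libraries with hyphens alone put Cxcr4 at 0.10. Without stimulated male brain replicates 20, 21 and 22 (added after seeing the data), Cxcr3 was -2.95 and Ccr2 4.06 between stimulated tissues, Cxcr3 -3.64 and Cx3cr1 0.53 for the tissue interaction, and Cxcr4 9.39 for the sex interaction; 1 library stood for its group.

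Genes past the threshold between unstimulated tissues were 1615 with voom and 1677 without the low-count filter (814 in the reported fit). Spleen stimulation gave 53 in the fit of all libraries (2080). Age gave 72 with DESeq2, 25 without the filter and 1 in the fit of all libraries (0). Stimulated male brain gave 5018 in that fit and 1072 without the 3 sparse libraries (2875), and stimulated tissues 7903 without them (4434). Stimulated female brain gave 878 with DESeq2, 1360 with voom, 704 without the filter, 2549 with all libraries and 135 with hyphenated titles (384). Sex gave 6 with DESeq2 size factors, 23 with DESeq2, 44 with voom and 29 without the filter (13). The tissue interaction gave 2770 with voom (4577). The sex interaction gave 120 with DESeq2 size factors, 1550 with DESeq2, 46 with voom, 737 without the filter, 2154 with all libraries and 46 without the sparse ones (261).

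With single libraries left out, Ccr2 ran from -0.38 to 1.002 between unstimulated tissues, -0.84 to -0.57 in spleen, -0.99 to 1.87 in stimulated male brain, -0.57 to 1.26 by sex and -0.33 to 2.61 for the tissue interaction. Cx3cr1 ran from -2.004 to -0.97 in spleen, -1.30 to 1.18 by age, -3.88 to -1.99 between stimulated tissues, -1.18 to 0.72 by sex and -2.06 to 0.78 for the tissue interaction. Cxcr3 ran from -0.24 to 0.57 by age, -4.51 to -1.91 in stimulated male brain, -12.09 to -0.63 in stimulated female brain, -2.22 to 0.32 between stimulated tissues, -3.19 to -0.66 for the tissue and -9.96 to 3.50 for the sex interaction. Cxcr4 ran from -0.26 to 0.33 by age and 8.96 to 13.43 for the sex interaction. Counts ran from 0 to 1 by age, 49 to 596 in stimulated female brain, 4 to 15 by sex and 23 to 377 for the sex interaction. By deposited TPM, 2, 3, 4 and 5 of 7 groups kept their rank of mean level for Cxcr3, Cxcr4, Ccr2 and Cx3cr1. In stimulated brain a count of 0 leaves up to 3.20 CPM undetected.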
